A study of Mus musculus with 6 samples.

Results

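The mitochondrial ribosomal protein genes of mouse were followed in ID8 cells, a line from C57BL/6 mouse ovarian surface epithelium. Members were the rows of the deposited gene count table whose symbol is Mrpl or Mrps with a number and, for some, a letter from a to c. The rule found 77 of 41327 genes, 48 named Mrpl and 29 named Mrps, and used no measured value. Total RNA came from 6 libraries of asynchronously growing, untreated, immortalized cells: 3 of genotype Trp53-/-, called Trp53_KO, and 3 of genotype Trp53+/+, called Trp53_WT. Trp53 encodes the tumour suppressor p53. The comparison asked which genes differ with the loss of p53. The labels give neither the altered part of Trp53 nor whether the libraries of a group came from separate cultures or clones, so the p-values reflect only how far these libraries differ, a spread that may be technical.

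Mitochondria translate their own small set of messages, nearly all of which encode subunits of the respiratory chain, on a ribosome of their own. Its ribosomal RNAs are made from mitochondrial DNA, while its proteins are encoded in the nucleus and imported. Some of these proteins descend from bacterial ribosomal proteins and others are found only in mitochondria. Their genes are spread over the genome, here over 17 chromosomes, and are transcribed in nearly every cell type.

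The libraries held between 15319956 and 19954170 gene counts. Trp53 RNA was at 25.3 to 29.6 CPM (counts per 1e6 counts, scaled between libraries by the TMM method) in Trp53_KO and at 97.3 to 110 CPM in Trp53_WT, and Cdkn1a, the p53 target that encodes the cell cycle inhibitor p21, at 1.51 to 1.73 against 37.5 to 46.0 CPM. Of 10 markers of ovarian surface epithelium and mesothelium, 4 were higher and 3 lower in Trp53_KO. Epcam had 0 counts and Cdh1 was under 1 CPM in all 6 libraries. The summed level was 3337 to 3622 CPM in Trp53_KO and 3265 to 3356 CPM in Trp53_WT, but single markers differed more. Lrrn4 averaged 65.5 CPM in Trp53_KO against 0.235 CPM in Trp53_WT, and Upk3b 531 against 73.7 CPM. The other 2 higher were Wt1 (339 against 192 CPM) and Krt7 (6.90 against 3.93 CPM). The 3 lower, Krt8, Krt19 and Msln, had log2 fold changes of -0.31, -0.30 and -0.26. Of 4 fibroblast markers 3 were higher, with sums of 229 to 251.4 CPM against 101 to 108 CPM, nearly all from Dcn, and Lum was at 0. Of 5 endothelial markers 1 was higher (Pecam1; sums of 1.65 to 2.35 CPM against 0.445 to 0.483 CPM), with Cdh5 and Kdr at 0, and of 6 granulosa and theca markers 1 was higher (Star; sums of 20.8 to 23.1 CPM against 2.97 to 3.91 CPM), with Foxl2, Cyp19a1 and Fshr at 0. Of 7 immune markers 4 were at 0, and only Cd68 had enough counts to be tested and was not called. Counts were enough for a test in 9 of the epithelial markers, 3 fibroblast, 1 endothelial and 2 granulosa and theca markers. Over all tested genes 14.1% were called higher and 16.1% lower. The part of these markers in the members' results was not tested, and in bulk RNA a change in the number of cells of a type cannot be told apart from one in RNA per cell. Trp53_WT replicate 1 stood apart from the other Trp53_WT libraries, with a chi-square per degree of freedom of 29.2 and 28.5 against replicates 2 and 3, where replicates 2 and 3 gave 2.08. Results are therefore also given without it.

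All 77 genes passed the filter on low counts. Of these, 9 were higher in Trp53_KO, 0 were lower and 68 did not pass (quasi-likelihood test of edgeR, with p adjusted by Benjamini-Hochberg over 13651 tested genes and a threshold of 0.05). The share called was 11.7%, below the 30.3% of all tested genes, of which 14.1% were higher and 16.1% lower. At an unadjusted p under 0.05, 17 members were higher and 0 lower, beside 5514 of 13651 tested genes in either direction. DESeq2 (13.6% of all tested genes higher, 13.8% lower) and limma-voom (14.3% and 16.1%) also called 9 members higher and 0 lower. The count was again 9 with RLE scaling (14.8% of all tested genes higher), upper quartile scaling (13.7%), no filter beyond 1 count (10.4%) and a filter of 1 CPM in 3 libraries (14.4%). The 9 higher genes were Mrpl1, Mrpl12, Mrpl13, Mrpl20, Mrpl21, Mrpl37, Mrpl48, Mrps7 and Mrps18b. The count was sensitive to single libraries: it was 2 without Trp53_KO replicate 1 (10% of all tested genes higher), 5 without Trp53_KO replicate 2 (12.1%) or replicate 3 (11.1%), 4 without Trp53_WT replicate 2 (11.1%), 6 without Trp53_WT replicate 3 (11.8%) and 11 without Trp53_WT replicate 1 (17.4%). With the replicate number as a blocking term it was 6 (13.0% of all tested genes higher, 14.9% lower). Mrpl20 and Mrps7 were called in all 13 alternative fits.

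**Figure D1:**
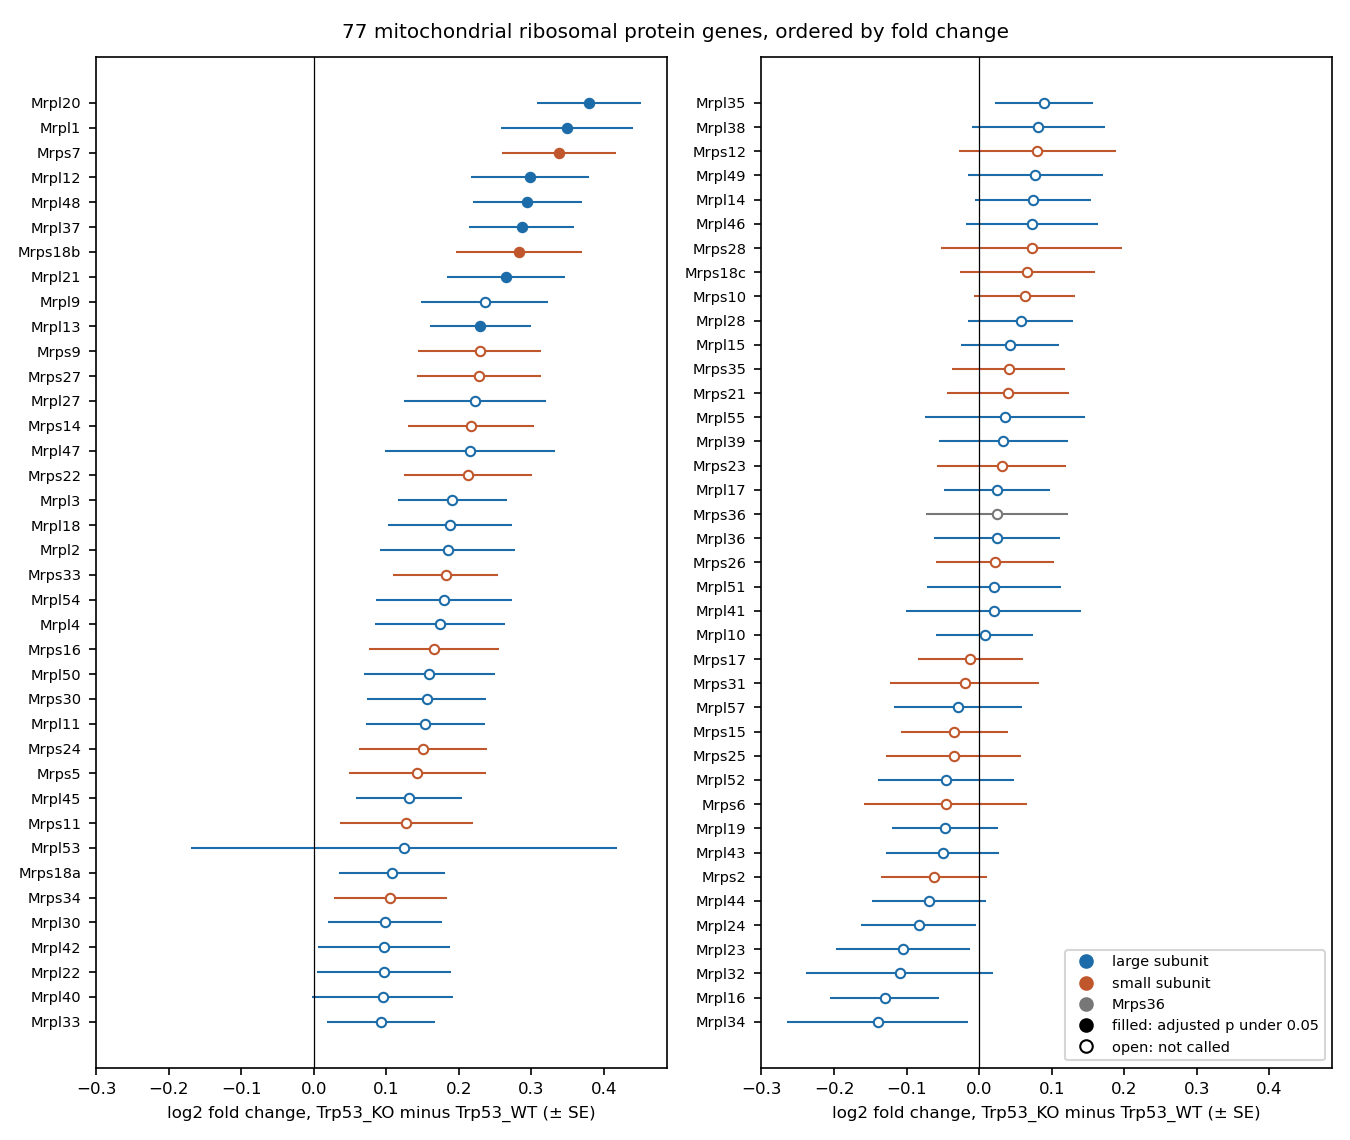
Log2 fold change, Trp53_KO minus Trp53_WT, of each of the 77 genes with its standard error (horizontal axis), ordered by value; blue is the large subunit, orange the small subunit, grey Mrps36, and filled points have an adjusted p under 0.05. The values run from -0.14 for Mrpl34 to 0.38 for Mrpl20, and the 9 filled points all lie to the right of 0.

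The fold changes of the family were small and close together. They ran from -0.14 to 0.38 on the log2 scale (0.908-fold to 1.30-fold), with a median of 0.09 and quartiles of 0.02 and 0.18. All tested genes had a median of -0.02 and quartiles of -0.24 and 0.17. None of the 77 changed by more than 0.5 in either direction, against 21.2% of all tested genes and 14.1% of the 7021 genes in the CPM range of the members other than Mrpl53. The fold change was above 0 for 61 members and below 0 for 16, whereas 47.7% of all tested genes were above 0. Every Trp53_KO library exceeded every Trp53_WT library for 23 members and lay below for 1, Mrpl16, where these shares were 21.8% and 24.2% over all tested genes. These counts and medians describe the family in these libraries and are not a test of it.

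**Figure D2:**
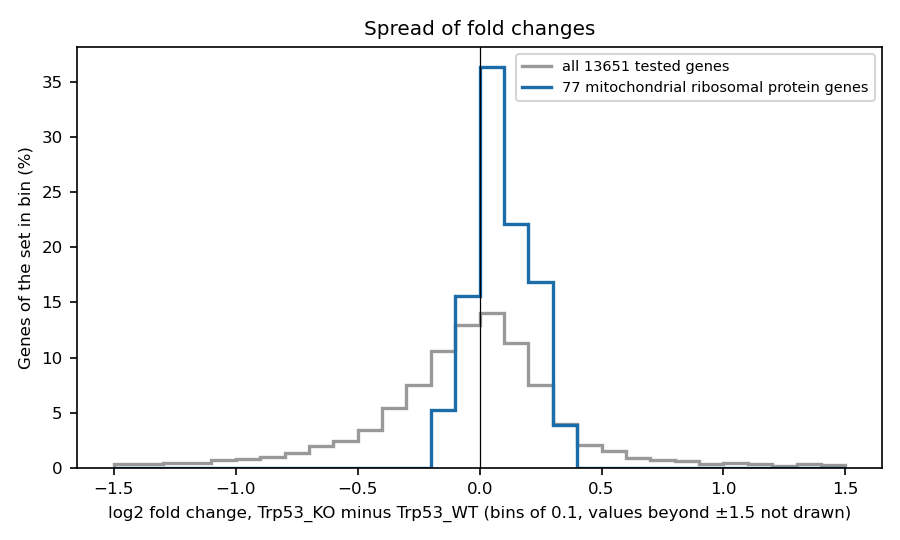
Share of genes (vertical axis, percent of the set) by log2 fold change, Trp53_KO minus Trp53_WT, in bins of 0.1 (horizontal axis), for the 77 members (blue) and all 13651 tested genes (grey). The blue outline stays between -0.2 and 0.4, while the grey one has tails on both sides.

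Promoter windows are shown for Mrpl20 and Mrps7, which were called in every fit, and for Mrps18b and Mrpl37, called members whose windows hold more than one of the motifs searched. Each window holds the 250 bases before and 50 bases after the gene's start in RefSeq (GRCm38.p6, the assembly of mm10), 5′ to 3′ along the gene. Capitals mark a match to 1 of 4 motifs on either strand: CCGGAAG, a core bound by ETS factors such as GABP, GCATGCGC, part of the NRF1 site, AAGATGG, part of the YY1 site, and CACGTG, the E-box bound by MYC and related factors. The windows lie at chr4:155802628-155802927 on the plus strand for Mrpl20, chr11:115603890-115604189 on the plus strand for Mrps7, chr17:35916391-35916690 on the minus strand for Mrps18b and chr4:107066817-107067116 on the minus strand for Mrpl37.
Mrpl20: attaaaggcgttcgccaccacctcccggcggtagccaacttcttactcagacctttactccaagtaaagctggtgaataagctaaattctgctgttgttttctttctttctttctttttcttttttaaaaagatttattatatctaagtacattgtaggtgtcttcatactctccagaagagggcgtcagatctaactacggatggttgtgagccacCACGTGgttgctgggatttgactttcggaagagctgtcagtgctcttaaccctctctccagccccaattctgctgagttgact
Mrps7: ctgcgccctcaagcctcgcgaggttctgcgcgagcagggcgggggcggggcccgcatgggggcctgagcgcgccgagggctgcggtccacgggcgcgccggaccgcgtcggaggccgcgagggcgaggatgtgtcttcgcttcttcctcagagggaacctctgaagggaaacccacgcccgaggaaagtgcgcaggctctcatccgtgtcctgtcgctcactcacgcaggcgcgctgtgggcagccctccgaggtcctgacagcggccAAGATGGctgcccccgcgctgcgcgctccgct
Mrps18b: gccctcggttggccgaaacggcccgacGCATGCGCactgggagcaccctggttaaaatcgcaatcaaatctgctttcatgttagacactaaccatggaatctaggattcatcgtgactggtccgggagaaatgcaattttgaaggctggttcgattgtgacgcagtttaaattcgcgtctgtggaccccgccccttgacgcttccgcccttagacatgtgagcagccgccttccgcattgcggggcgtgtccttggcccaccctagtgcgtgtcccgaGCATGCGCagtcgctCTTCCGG
Mrpl37: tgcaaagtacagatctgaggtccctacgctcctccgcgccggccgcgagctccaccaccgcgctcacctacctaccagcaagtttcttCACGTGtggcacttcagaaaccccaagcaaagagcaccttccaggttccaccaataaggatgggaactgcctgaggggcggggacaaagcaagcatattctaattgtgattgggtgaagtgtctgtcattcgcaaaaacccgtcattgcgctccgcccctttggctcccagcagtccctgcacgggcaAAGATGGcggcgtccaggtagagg

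The window of Mrpl20 held only the E-box, and that of Mrps7 only AAGATGG, just after the start. That of Mrpl37 held both of these, and that of Mrps18b held GCATGCGC in 2 places and CCGGAAG on the opposite strand at its end. Windows were given for 68 of the 77 genes, in 74 entries since some genes have several starts. CCGGAAG was present in 33.8% of the members' windows, against 17.8% of the windows of tested genes and 8.86% of all 32851 windows. AAGATGG was present in 17.6%, against 7.23% and 6.34%, and GCATGCGC in 10.8%, against 5.42% and 2.71%. The E-box was present in 9.46%, against 9.87% and 7.15%. Among the 8 called members with a window, 3 of 11 entries held CCGGAAG, and among the 60 uncalled ones 22 of 63 did. A match of letters is not a binding site, and no test was made on these shares.

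The large subunit, which holds the peptidyl transferase centre and the exit tunnel, had 50 members, counting Mrps30 and Mrps18a, whose products sit in it despite their names. Of these 7 were higher and 43 did not pass, beside 14.1% of all tested genes called higher. The median of the 50 was 0.09 on the log2 scale, and 40 values were above 0. The small subunit, which binds and decodes the message, had 26 members, of which 2 were higher, with a median of 0.08 and 20 values above 0. Whether the subunits differed was not tested. Mrps36 belongs to neither group, because its product is now known as a subunit of the 2-oxoglutarate dehydrogenase complex. It was at 21.4 ± 1.9 CPM in Trp53_KO and 20.99 ± 1.6 CPM in Trp53_WT (SD, n = 3 each).

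Of the 30 large subunit genes with a bacterial counterpart, 5 were higher (16.7%, beside 14.1% of all tested genes): Mrpl1, Mrpl12, Mrpl13, Mrpl20 and Mrpl21. Mrpl20, whose bacterial counterpart binds ribosomal RNA early in assembly (ENSMUSG00000029066, chromosome 4, 155802878 to 155809975, GRCm38), had levels of 65.4, 62.8 and 60.6 CPM in the 3 Trp53_KO libraries and 46.7, 48.9 and 49.6 CPM in the 3 Trp53_WT libraries, here and below in the order of their replicate numbers. Every Trp53_KO library was above every Trp53_WT library, and the log2 fold change was 0.38 ± 0.07 (SE; edgeR, Benjamini-Hochberg adjusted p = 0.0030), the largest of the family. Mrpl1, the protein of the mobile stalk near the exit site of tRNA (chromosome 5, 96209493 to 96266727), was at 49.9, 54.0 and 46.1 CPM against 36.2, 39.1 and 42.4 CPM. The groups did not overlap, and the log2 fold change was 0.35 ± 0.09 (SE; edgeR, adjusted p = 0.017). The call was lost without Trp53_KO replicate 1 or 2, with an adjusted p of up to 0.061.

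Mrpl12, Mrpl10 and Mrpl11 encode the stalk that recruits translation factors, in which copies of the Mrpl12 protein are held by the Mrpl10 protein and the Mrpl11 protein forms the base. Mrpl12 (chromosome 11, 120484613 to 120489065) was at 66.2, 63.1 and 66.0 CPM in Trp53_KO and 57.6, 48.6 and 52.9 CPM in Trp53_WT. The log2 fold change was 0.30 ± 0.08 (SE; edgeR, adjusted p = 0.021). Its 3 Trp53_KO values lay within a narrow range above all Trp53_WT values. The other two were not called: Mrpl10 averaged 79.5 ± 1.8 CPM against 79.1 ± 3.1 CPM (SD, n = 3 each), with a log2 fold change of 0.01 and a 95% interval of -0.14 to 0.16, and Mrpl11 at 44.6 ± 0.98 against 40.0 ± 3.3 CPM, with an interval of -0.03 to 0.34. Mrpl12 missed the threshold in 4 fits, those that left out Trp53_KO replicate 1, Trp53_KO replicate 3, Trp53_WT replicate 2 or Trp53_WT replicate 3 (adjusted p up to 0.081).

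Mrpl13 (chromosome 15, 55534094 to 55557748) was at 76.2, 79.1 and 72.5 CPM in Trp53_KO and 62.8, 64.5 and 66.9 CPM in Trp53_WT, with a log2 fold change of 0.23 ± 0.07 (SE; edgeR, adjusted p = 0.033). Mrpl21 (chromosome 19, 3282901 to 3292837) was at 49.8, 48.9 and 49.5 CPM against 37.5, 41.3 and 44.3 CPM, with a log2 fold change of 0.26 ± 0.08 (SE; adjusted p = 0.034). Both encode proteins with bacterial counterparts that bind the large ribosomal RNA, and in both the groups did not overlap. Each was lost in 5 of 13 alternative fits, all of them fits that left out 1 library or blocked on the replicate number (adjusted p up to 0.105 for Mrpl13 and 0.108 for Mrpl21).

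Of the 20 large subunit genes classed here as additions of the mitochondrial ribosome, among them Mrps18a, a paralog of a gene with a bacterial counterpart, 2 were higher. Mrpl37 (chromosome 4, 107055874 to 107066868) was at 49.5, 45.7 and 46.6 CPM in Trp53_KO and 40.0, 37.98 and 38.4 CPM in Trp53_WT, with a log2 fold change of 0.29 ± 0.07 (SE; edgeR, adjusted p = 0.015). Mrpl48, a protein of the central protuberance, the crown of the large subunit (chromosome 7, 100545751 to 100608301), was at 31.0, 30.2 and 32.0 CPM against 24.5, 25.2 and 26.3 CPM, with a log2 fold change of 0.29 ± 0.08 (SE; adjusted p = 0.015). In both genes all Trp53_KO libraries exceeded all Trp53_WT libraries. Each lost its call in 3 of 13 alternative fits, with an adjusted p of up to 0.070 for Mrpl37 and 0.055 for Mrpl48. Of the 7 genes listed here for the central protuberance, which may not be all of its genes, 1 was higher. All 7 had a fold change above 0, with a median of 0.16. Of 8 genes listed around the exit tunnel 0 were called, and the median was 0.03. The share of all tested genes called higher was 14.1%, and the groups were not tested against each other.

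In the small subunit, Mrps7, a protein of the head that binds the small ribosomal RNA (ENSMUSG00000046756, chromosome 11, 115603925 to 115608036), was at 93.9, 90.7 and 97.0 CPM in Trp53_KO and 67.3, 76.4 and 79.0 CPM in Trp53_WT. The groups did not overlap, and the log2 fold change was 0.34 ± 0.08 (SE; edgeR, adjusted p = 0.0093). Without Trp53_WT replicate 1, its lowest library, the value was 0.27 ± 0.07 and remained called. It was the only one called of the 16 small subunit genes classed as having a direct bacterial counterpart. Among the 10 classed as additions, which include Mrps18b although it has a paralog of bacterial type, the called gene was Mrps18b. Over all tested genes 14.1% were called higher.

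Mrps18a, Mrps18b and Mrps18c are paralogs that descend from 1 bacterial gene, and their products occupy different places in the ribosome. Mrps18b (chromosome 17, 35910379 to 35916389) was at 75.9, 67.7 and 68.7 CPM in Trp53_KO and 52.5, 62.2 and 59.7 CPM in Trp53_WT, with a log2 fold change of 0.28 ± 0.09 (SE; edgeR, adjusted p = 0.035). Its lowest library was Trp53_WT replicate 1, without which the value was 0.21. Mrps18a was at 40.4 ± 1.8 against 37.5 ± 0.62 CPM and Mrps18c at 18.3 ± 1.4 against 17.4 ± 0.87 CPM (SD, n = 3 each). Neither was called, with 95% intervals of -0.06 to 0.27 and -0.14 to 0.28 for the log2 fold change, which overlap that of Mrps18b (0.09 to 0.48). The call of Mrps18b was lost in 5 of 13 alternative fits (adjusted p up to 0.148).

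**Figure D3:**
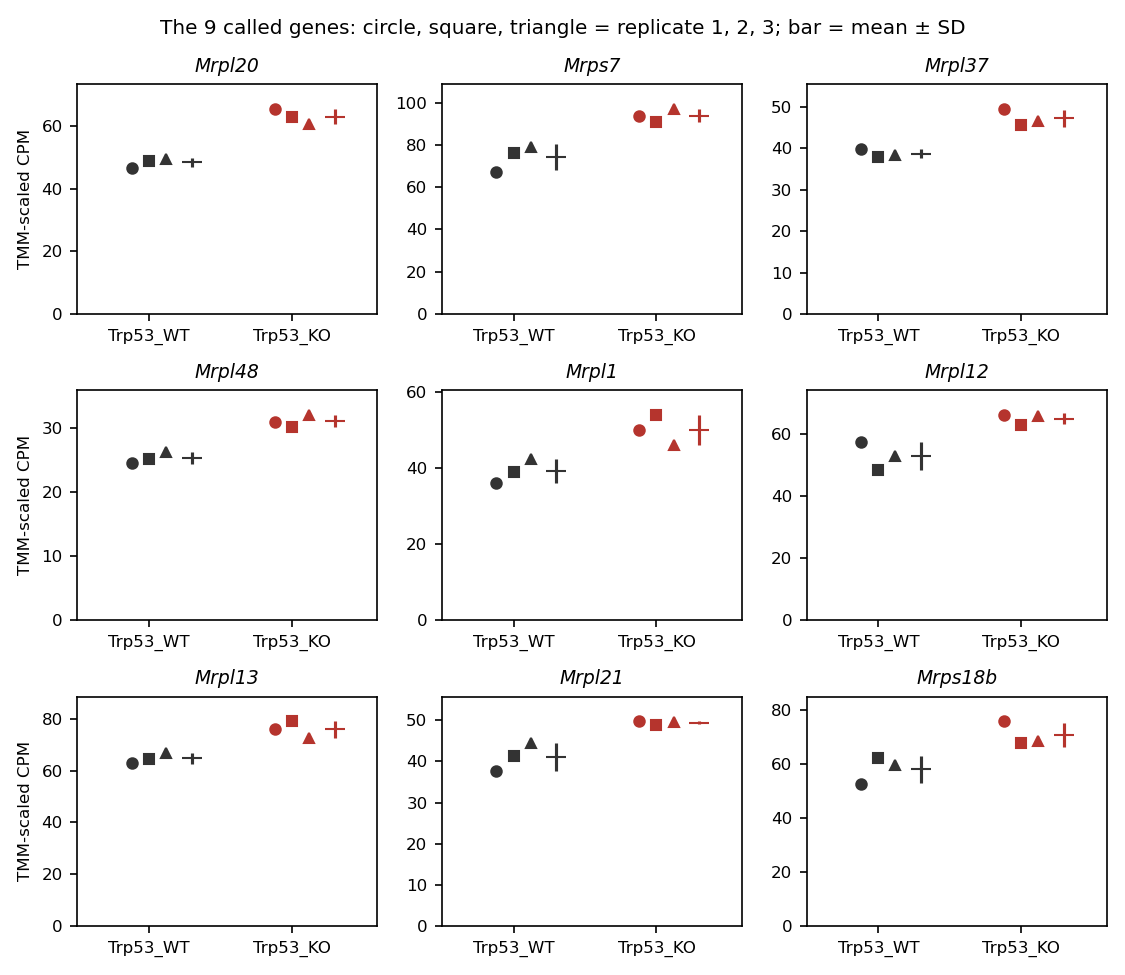
TMM-scaled CPM (vertical axis, from 0) of the 9 called genes in each library of Trp53_WT (black) and Trp53_KO (red), with the mean and SD of 3 libraries beside them. In each panel all red points lie above all black points.

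Intervals bounded the 68 uncalled genes, though not always below the fold changes of the called genes. Upper bounds were, for example, 0.42 for Mrps9, 0.43 for Mrpl9 and 0.48 for Mrpl47. For 67 of the 68 the 95% interval of the log2 fold change lay between -0.5 and 0.5. The exception was Mrpl53, a large subunit gene with 16 to 36 counts per library, whose interval ran from -0.53 to 0.78. Next to the called genes came Mrps9, Mrpl9 and Mrps27, with log2 fold changes of 0.23, 0.24 and 0.23 and adjusted p-values of 0.069, 0.070 and 0.074. Mrpl16 was at 53.7, 56.2 and 55.4 CPM in Trp53_KO and at 57.2, 59.2 and 64.5 CPM in Trp53_WT, a log2 fold change of -0.13 ± 0.07 (SE; edgeR, adjusted p = 0.227).

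Summed over the 77 genes, the family held 0.350%, 0.346% and 0.343% of the gene counts in the Trp53_KO libraries and 0.294%, 0.332% and 0.334% in those of Trp53_WT. Trp53_WT replicate 1 was thus the lowest library, and the other two Trp53_WT libraries were close to the Trp53_KO range without reaching it. This library was the lowest of the 6 for 46 members (59.7%), against 24.0% of all tested genes, and for 7 of the 9 called members. Without it, the median log2 fold change of the members went from 0.09 to 0.05, the number of values below 0 went from 16 to 25, and 63 members had a lower value. All 9 calls held without it, and Mrpl3 (0.20 ± 0.08 SE, adjusted p = 0.046) and Mrps27 (0.28 ± 0.09 SE, adjusted p = 0.019) were added, beside 17.4% of all tested genes called higher and 18.5% lower in that fit. The same library was the highest for the mitochondrial messages mt-Nd4, at 905 CPM against 468 and 442 CPM in the other Trp53_WT libraries, and mt-Nd5, at 819 CPM against 367 and 337 CPM. It was also the highest for the mitochondrial ribosomal RNA mt-Rnr1, at 2203 CPM against 1071 and 1032 CPM. Among nuclear genes read here, it was the highest for Lars2 (35.7 against 6.13 and 5.68 CPM) and Pprc1 (246 against 127 and 127 CPM). For the message mt-Nd6 it was the lowest, at 15.5 CPM against 47.5 and 40.7 CPM. Whether these values have a part in the members' result was not tested.

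**Figure D4:**
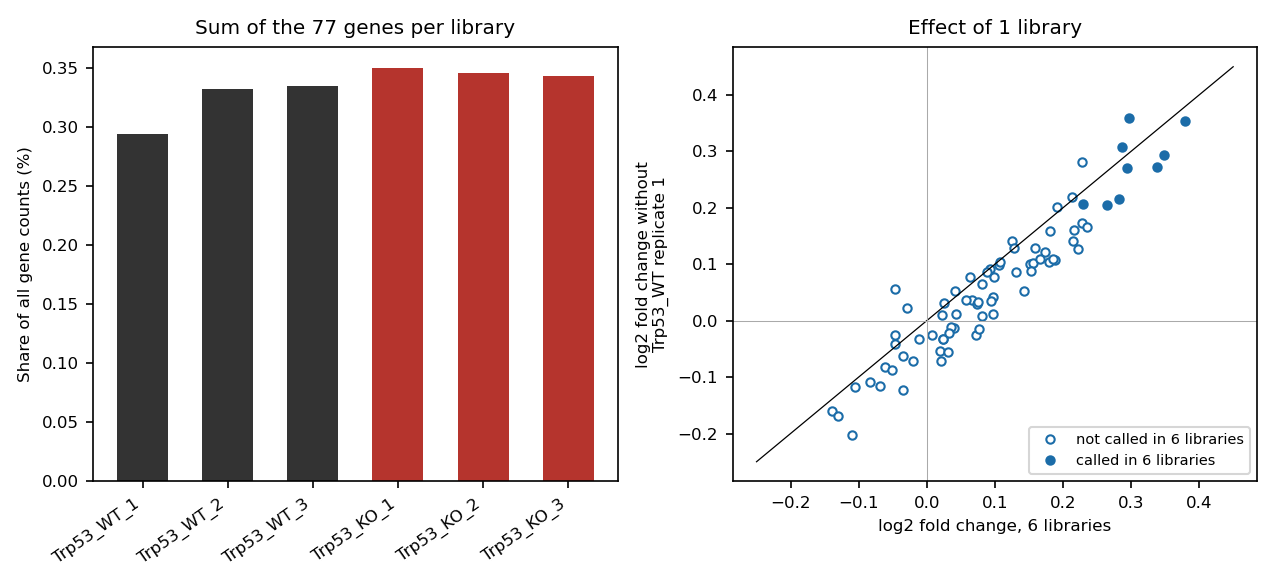
Left, the share of all gene counts (percent, axis from 0) held by the 77 genes in each library; right, the log2 fold change of each gene without Trp53_WT replicate 1 (vertical axis) against that from 6 libraries (horizontal axis), with the line of equality. The bar of Trp53_WT replicate 1 is the lowest at 0.294%, and 63 of the 77 points lie below the line.

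Mean levels ran from 1.30 CPM for Mrpl53 to 106 CPM for Mrpl18. The mean over the 6 libraries was 10 to 100 CPM for 74 of the 77 genes, above for Mrpl18 and below for Mrps28 and Mrpl53. The spread between libraries was small, with a median coefficient of variation of 5.40% in Trp53_KO and 6.74% in Trp53_WT. Divided by the length of all annotated exons, the highest levels were those of Mrpl18 (75.5 CPM per 1000 bases), Mrpl28 (56.6), Mrpl10 (46.4), Mrpl2 (43.3) and Mrps21 (42.9), and the lowest those of Mrps35 (4.04), Mrpl47 (3.79), Mrpl48 (3.46), Mrpl23 (3.43) and Mrpl53 (1.64). The order depends on the length used. Divided by the median length of coding transcripts, Mrpl33 led with 173 CPM per 1000 bases, then Mrpl20 with 113, Mrpl30 with 105, Mrps17 with 90.4 and Mrpl18 with 86.6, and only 4 genes were among the top 10 by both lengths. Mrpl53 was the lowest by both, and most of its exon length is shared with another annotated gene on the same strand, so its reads are uncertain.

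Many of these genes start next to another gene. A protein-coding gene on the opposite strand started within 1000 bases of 33 members, and 30 of these partners were tested. Of the 30 partners, 2 were higher and 4 lower, beside 14.1% and 16.1% of all tested genes. For the 6 called members with a tested partner, 1 partner was also higher: Mtbp, whose start lies 340 bases from that of Mrpl13, averaged 65.8 CPM in Trp53_WT and 90.9 CPM in Trp53_KO (log2 fold change 0.46 ± 0.07 SE by edgeR, adjusted p = 0.00057). Exons of Mtbp overlap those of Mrpl13 on the opposite strand by 330 bases, so reads of Mtbp and Mrpl13 may not be told apart. The partners of the other 5 were not called: Gga3 beside Mrps7 had a log2 fold change of -0.08, Cyb5rl beside Mrpl37 -0.01, Rab6a beside Mrpl48 0.13, Ppp1r10 beside Mrps18b 0.14 and Ighmbp2 beside Mrpl21 -0.06. Klc4 beside Mrpl2 fell, at -0.68 ± 0.14 on the log2 scale (SE; adjusted p = 0.0052), whereas Mrpl2 was at 53.9 ± 3.5 against 47.4 ± 4.7 CPM (SD, n = 3 each) and was not called. Pnpla7 beside Mrpl41, Tmem63b beside Mrpl14 and Mitd1 beside Mrpl30 also fell, with -0.58, -0.34 and -0.28, and Tcp1 beside Mrpl18 rose with 0.19. Mrpl46 and Mrps11 are each other's partner, with starts 412 bases apart, and neither was called (0.07 and 0.13).

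Exons of 27 members overlap exons of a gene on the opposite strand and those of 8 overlap another gene on the same strand. The libraries were stranded, but the strand setting of the counting is not given in the sources used here, so reads from such genes may not be told apart. Among the 45 members that overlap no other exons, 3 were higher (Mrpl1, Mrpl20 and Mrpl37) and 0 lower, with a median log2 fold change of 0.08. Over all tested genes 14.1% were higher and 16.1% lower. The other 6 called genes, Mrps7, Mrpl12, Mrpl13, Mrpl21, Mrpl48 and Mrps18b, each overlap exons of a gene on the opposite strand.

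The rest of the mitochondrial translation machinery was read from lists. For every list below, the counts stand beside 14.1% of all tested genes higher and 16.1% lower. For the 6 ribosomal proteins with symbols of another kind, 2 were higher and all 6 values were above 0, with a median of 0.18. Chchd1, a small subunit protein, was at 40.5, 45.8 and 38.4 CPM in Trp53_KO and 28.3, 35.3 and 30.9 CPM in Trp53_WT, with a log2 fold change of 0.40 ± 0.10 (SE; edgeR, adjusted p = 0.017), and Aurkaip1, another, rose with 0.23 ± 0.07 (adjusted p = 0.038). Dap3, a GTP-binding protein of the small subunit, was at 0.24 (adjusted p = 0.075), and Gadd45gip1, Ict1, an enzyme that rescues stalled ribosomes, and Ptcd3, a small subunit protein, were at 0.14, 0.12 and 0.09. The calls of Chchd1 and Aurkaip1 were lost in 2 and 6 of 13 alternative fits, with adjusted p-values of up to 0.068 and 0.142.

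Of 29 genes for ribosomal RNA modification and assembly of the mitochondrial ribosome, 1 rose and 1 fell, with a median of -0.001. Mrm1, a methyltransferase of the large ribosomal RNA, averaged 11.3 CPM in Trp53_WT and 7.66 CPM in Trp53_KO (log2 fold change -0.56 ± 0.12 SE by edgeR, adjusted p = 0.0068) and was called in all 13 alternative fits. Nsun4, a methyltransferase of the small ribosomal RNA, rose with 0.30 ± 0.09 (adjusted p = 0.027), a call lost in 6 of 13 alternative fits (up to 0.115). Of 17 translation factors and their helpers only Mrrf, which recycles ribosomes after termination, was called, with 0.27 ± 0.08 (adjusted p = 0.033; up to 0.129 in the 6 fits that lost it). The elongation factor genes Tufm, Tsfm and Gfm1 had log2 fold changes of 0.10, 0.16 and -0.14 and were not called.

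Among 20 genes for charging mitochondrial tRNA, 2 rose and 2 fell. The rises were in Ears2, for glutamate (0.43 ± 0.10 SE), and Aars2, for alanine (0.30 ± 0.09), and the falls in Iars2, for isoleucine (-0.24 ± 0.06), and Vars2, for valine (-0.31 ± 0.09; edgeR, adjusted p between 0.0093 and 0.031). Without Trp53_KO replicate 1 none of these 4 calls held, with adjusted p-values of up to 0.112 over the fits. The largest fold change of the 20, -1.28 ± 0.64 in Lars2, was not called (SE; edgeR, adjusted p = 0.169). None of 12 genes for replication and transcription of mitochondrial DNA was called (edgeR). At an unadjusted p under 0.05 it was also 0 of them, beside 5514 of 13651 tested genes. Tfam and Polrmt, which package and transcribe it, were at 0.13 and -0.10.

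Of 10 genes for regulators of mitochondrial biogenesis, 4 fell, 0 rose and 6 were not called, with a median of -0.21, beside 16.1% of all tested genes lower. No test compared them with the family. Ppargc1a, which encodes the coactivator PGC-1alpha, had 15, 18 and 17 counts in Trp53_KO and 54, 62 and 51 counts in Trp53_WT, a log2 fold change of -1.77 ± 0.21 (SE; edgeR, adjusted p = 1.8e-04). Ppargc1b, its relative, fell with -0.77 ± 0.18 and Esrra, the nuclear receptor they act through, with -0.45 ± 0.10. Yy1 fell with -0.22 ± 0.07, a call lost in 8 of 13 alternative fits (adjusted p up to 0.181), and that of Ppargc1b was lost without Trp53_KO replicate 1 (0.051). Of the listed genes for factors named with the motifs above, Yy1 was the one called. Nrf1, Gabpa and Myc were not called, with log2 fold changes of 0.16, -0.07 and -0.20.

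The 15 mitochondrially encoded genes had a median log2 fold change of -0.11, with 1 lower, 0 higher and 13 values below 0. The one called was mt-Nd2, a message for a subunit of respiratory complex I, at 423, 439 and 365 CPM in Trp53_KO and 547, 480 and 460 CPM in Trp53_WT (log2 fold change -0.28 ± 0.09 SE; edgeR, adjusted p = 0.043). It missed the threshold when Trp53_KO replicate 1, Trp53_KO replicate 3 or Trp53_WT replicate 2 was left out (adjusted p up to 0.145). Other messages lay near 0, such as mt-Cytb at 0.01 and mt-Co2 at -0.06, and mt-Nd6 was at 0.42, none of them called. For mt-Nd4 and mt-Nd5 the log2 fold changes were -0.68 and -0.76 with adjusted p-values of 0.052 and 0.069. Without Trp53_WT replicate 1 they were -0.27 and -0.24, with adjusted p-values of 0.0021 and 0.0055. The ribosomal RNAs mt-Rnr1 and mt-Rnr2 are among the 15, at -0.44 and -0.12, and were not called. Both were highest in Trp53_WT replicate 1. For mt-Rnr1 the levels were 2203, 1071 and 1032 CPM in Trp53_WT and 1048, 1162 and 970 CPM in Trp53_KO. The same library was the lowest for mt-Nd6, with 15.5, 47.5 and 40.7 CPM in Trp53_WT and 38.9, 53.3 and 47.6 CPM in Trp53_KO.

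**Figure D5:**
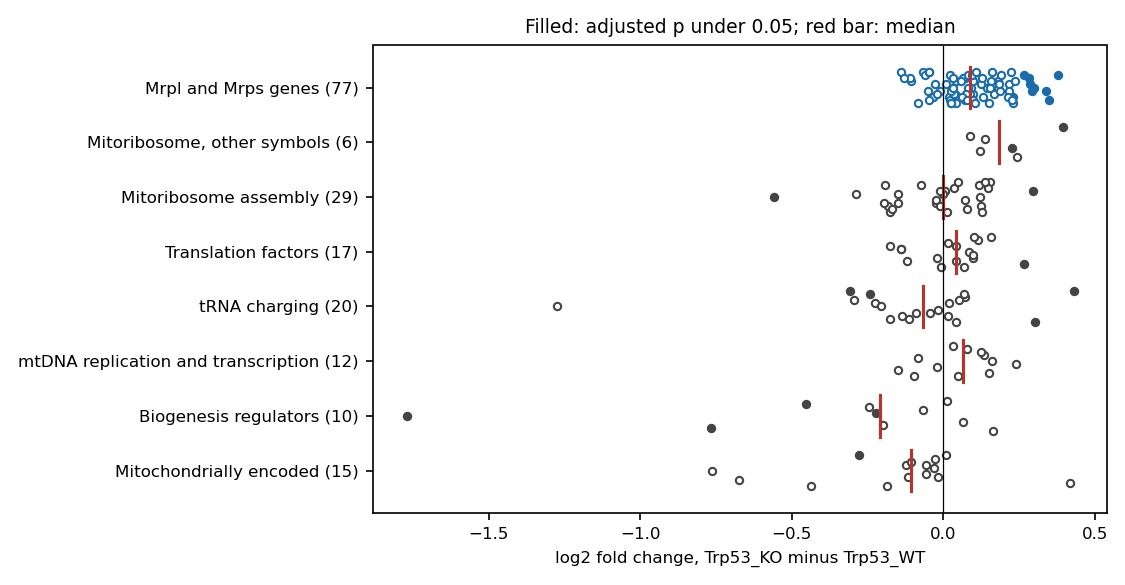
Log2 fold change, Trp53_KO minus Trp53_WT (horizontal axis), of every tested gene in 8 groups with their numbers in brackets; filled points have an adjusted p under 0.05 and red bars are medians. The Mrpl and Mrps genes lie in a narrow band, most of them above 0, and the biogenesis regulators reach -1.77.

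Repeat elements inside the members were read from the authors' deposited table, in which each locus and direction of reading has a fold change and an FDR (false discovery rate) but no value for single libraries. The table placed 1682 rows in 73 of the 77 genes. With an FDR threshold of 0.05, the authors' deposited table calls 4 of these rows higher in Trp53_KO (0.238%) and 0 lower, against 0.388% and 0.284% of all 773731 rows. Among the 661822 rows in annotated genes, the authors' deposited table calls 0.31% higher and 0.264% lower. A pair of the 4 in the authors' deposited table lie in introns of Mrpl1, a called gene: a B1_Mur4 element at chromosome 5, 96227154 to 96227282 (mm10; FDR = 0.0092) and an MLT1H element at 96221902 to 96222192 (FDR = 0.017), both read in the direction of the gene. The lowest FDR in the authors' deposited table, 3.6e-06, belonged to an MLTR14 element in an intron of Mrpl33 (chromosome 5, 31605602 to 31606099), read against the direction of the gene. The fourth in the authors' deposited table was a B1_Mur1 element in Mrps16 (FDR = 0.049), and neither Mrpl33 nor Mrps16 was called.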

How the data were processed

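Total RNA of 6 ID8 libraries, 3 per Trp53 genotype, was sequenced after stranded library preparation, per the labels' protocols. Per the submitters' processing notes, the tools were STAR, featureCounts and edgeR, and the build was mm10. Versions, settings and annotation were not given in the sources used here. Raw, whole-number gene counts were deposited by the authors. For repeats, the authors deposited log fold changes, whose base is not stated and which were taken as log2, and the FDR (an adjusted p-value). Fold changes of repeats are used here for direction only.

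Counts were analysed with edgeR 4.0.16 in R 4.3.3. Of 41327 genes, 18744 had no count and 13651 were kept by filterByExpr. TMM factors scaled the libraries, the genotype was the only term of a quasi-likelihood model of all 6 libraries, and the Benjamini-Hochberg adjustment ran over all tested genes, with a threshold of 0.05, two-sided. Standard errors are the size of the log2 fold change over the root of F, and are approximate. The 95% intervals rest on them. The biological coefficient of variation was 9.75%. The fit was tested on simulated data, where it recovered few of the genes changed by about as much as the called members. It also called some genes left unchanged there. Far fewer genes were changed in that simulation than were called here, so its recovery may not carry over. Intervals of some uncalled members reach the fold changes of called ones, so a gene that did not pass may still differ by that much. Replicate pairs differed by more than sampling noise (chi-square per degree of freedom from 2.08 upward), so none were merged. Named genes were Trp53 and Cdkn1a, every called member, the 5 most and 5 least abundant members per exon length, the Mrps18 paralogs, the stalk genes and up to 4 genes of each other list with the lowest adjusted p. Others were named after their values were seen, as were the motifs chosen. The members and lists were chosen with earlier results of these data known. Gene coordinates and lengths came from GENCODE M21 (GRCm38), promoters from RefSeq (GRCm38.p6). The suffix of a repeat row was taken to give the read direction, since the gene's own strand was matched in 88.0% of 38905 rows from exons or 3' untranslated regions. Alternatives were RLE and upper quartile scaling, a looser and a stricter filter, a block on the replicate number, DESeq2 1.42.0, limma-voom (limma 3.58.1), each library left out, and members that overlap no other exons.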

Additional observations from a re-analysis of the deposited data

How the results depend on the processing

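The number of members higher in Trp53_KO was 9 under RLE and upper quartile scaling, under both other filters, and in DESeq2 and limma-voom, and the same 9 genes were called each time. Leaving out 1 library gave counts from 2 to 11, and was 3 among the 45 members that overlap no other exons, where fewer genes were counted. For the libraries left out the cause was not tested. The number lower was 0 in every fit, and the median log2 fold change ranged from 0.05, without Trp53_WT replicate 1, to 0.12, without Trp53_WT replicate 2. The replicate numbers did not pair the libraries: same-numbered libraries had correlations of their deviations of -0.05, 0.08 and -0.12. With the replicate number as a block, 6 members were higher and 0 lower, beside 13.0% and 14.9% of all tested genes, with a median of 0.09. No named gene that was called changed sign in any fit. The libraries' depth limits Mrpl53 most, with 16 to 36 counts each.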
